A study of Mus musculus with 6 samples.

Results

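*Mid1* and 4 genes that belong with it were followed in mature CD8+ T cells of WT mice and of BIT mice, whose β5i-encoding *Psmb8* locus produces the thymoproteasome subunit β5t instead. The other genes are *Mid2*, the paralogue of *Mid1*, *Igbp1*, which encodes the alpha4 protein that MID1 binds, and *Ppp2ca* and *Ppp2cb*, which encode the catalytic subunits of protein phosphatase 2A (PP2A). These 5 genes were chosen by name among the 78275 genes of the deposited table. *Mid1* was chosen for its difference between the WT and BIT libraries, so its values are given as a description with no test. The other 4 were chosen for their relation to *Mid1*, not for their own values. In BIT mice the level of *Mid1* was 44.6% of that in WT mice, with every BIT library below every WT library, whereas neither catalytic gene nor *Igbp1* passed the test for a difference, and *Mid2* was almost not read in either genotype.

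MID1 is a ubiquitin ligase of the tripartite motif (TRIM) family that sits on microtubules, and inherited loss of its function in humans causes a midline developmental disorder, Opitz syndrome. Through alpha4 it reaches the catalytic subunit of PP2A and directs its ubiquitination and degradation. PP2A is an abundant serine and threonine phosphatase built from a scaffold subunit, a regulatory subunit and a catalytic subunit, and alpha4 holds catalytic subunits that are outside this complex. In cytotoxic T cells MID1 has been described as a regulator of the release of lytic granules. All of these are roles of the proteins, and only their RNA was measured here.

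RNA was sequenced from CD4-CD8+ T cells with a high level of TCRβ that had been sorted from lymph nodes, with spleens also named in the protocol of the labels. There were 3 WT mice on the C57BL/6 background and 3 mice homozygous for the β5iβ5t allele (BIT), in which the *Psmb11* sequence was inserted at the translation start of *Psmb8*. The animals were between 9 and 10 weeks old, labelled male, untreated as far as the labels say, and gave 1 library each. Because the allele is in the germline, T cells and the cells that selected them carried it alike. Several BIT lines were made, and the study documents a single one of them unless it says otherwise, with no other line named for this experiment. Libraries were made from total RNA after removal of ribosomal RNA.

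The libraries held between 37467678 and 52922675 estimated counts. The targeted genes followed their labels, with between 8024 and 10790 counts of *Psmb8* in WT against between 59 and 73 in BIT libraries, and 0 counts of *Psmb11* in WT against between 1226 and 1926. Markers of CD8 T cells (4 of 4 detected) summed to between 3099 and 3278 CPM, the usual scaling of counts to a library's sum, in WT and between 3145 and 3332 in BIT libraries. B-cell markers (4 of 4) summed to between 25.1 and 30.6 CPM in WT and between 20.2 and 26.1 in BIT, myeloid markers (4 of 4) to between 10.4 and 17.4 and between 7.84 and 11, CD4 T-cell markers (2 of 2) to between 2.14 and 4.51 and between 2.26 and 3.58, NK-cell markers (2 of 2) to between 1.19 and 2.2 and between 1.12 and 2.32, and *Trdc* of γδ T cells to between 4.33 and 5.03 and between 3.57 and 4.8. The part of these cells in the results was not tested, and the sums do not tell fewer cells from less RNA per cell. The library of WT replicate 3 stood apart, with *Xist* at 66626 counts and 4 Y-linked genes at 0 although its mouse was labelled male, so values are also given without it. BIT replicate 3 had 125 counts of *Xist* beside 8949 of the 4 Y-linked genes, and the remaining libraries had between 2 and 9 of *Xist*. The cause was not tested.

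The following pairs of sequences show how far reads can tell *Mid1* from its relatives. They are given from GRCm39 on the plus strand, with capitals where a pair differs. *Mid1* and *Mid2* are first shown at the start of their coding sequences, at chrX:168710006-168710125 and chrX:139578801-139578920, both in exon 2 of the canonical transcript, where 23 of 120 bases differ.

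Mid1: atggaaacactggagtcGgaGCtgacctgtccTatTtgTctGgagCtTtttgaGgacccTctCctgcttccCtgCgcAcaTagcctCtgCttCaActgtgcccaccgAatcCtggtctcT
Mid2: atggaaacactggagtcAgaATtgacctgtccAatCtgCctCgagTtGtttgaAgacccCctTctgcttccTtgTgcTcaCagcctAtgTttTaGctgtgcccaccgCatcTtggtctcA

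*Mid1* also has a near-identical partial copy on the Y chromosome, *Mid1-ps1*, and the pair is shown at chrX:168768949-168769068 and chrY:90771739-90771858, where 1 of 120 bases differs. This stretch was picked for its differences. No stretch of that length within 1 exon had more in the longest gap-free part of their alignment.

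Mid1: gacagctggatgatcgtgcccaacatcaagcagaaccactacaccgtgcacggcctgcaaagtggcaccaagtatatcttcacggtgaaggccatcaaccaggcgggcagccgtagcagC
Mid1-ps1: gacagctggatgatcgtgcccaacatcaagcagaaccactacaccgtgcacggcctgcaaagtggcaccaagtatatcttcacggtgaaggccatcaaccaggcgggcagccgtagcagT

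Over the aligned coding sequences, 1409 of 1998 bases (70.5%) were identical between *Mid1* and *Mid2*, and 495 of 667 encoded residues (74.2%). The longest exact run was 17 bases. *Ppp2ca* and *Ppp2cb* were identical at 763 of 929 bases (82.1%), with a longest run of 25 bases, but at 301 of 309 residues (97.4%), so that these 2 genes encode almost the same protein from readily told RNA. By contrast *Mid1* and *Mid1-ps1* shared 1243 of 1248 aligned bases (99.6%), in exons 4 to 10 of *Mid1*, with 1 run of 582 bases.

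The reads were 100 bases long and came in pairs. Each stretch of 100 bases in the members' transcripts was looked up alone, without a mate, in those of other genes. No stretch of *Mid2* or *Igbp1* was found elsewhere. For *Mid1*, 2348 of 7792 stretches (30.1%) also belonged to another gene in either orientation, and 1502 (19.3%) in the same orientation. Of the 2348, 883 were shared with *Mid1-ps1* and 756 with *G530011O06Rikx*, a non-coding gene on the opposite strand. In *Ppp2cb*, 700 of 3239 stretches (21.6%) were shared, all of them with *Ubxn8* on the opposite strand, and in *Ppp2ca* 108 of 10239 (1.05%). No stretch was common to *Mid1* and *Mid2* or to *Ppp2ca* and *Ppp2cb*. The kit marks the strand of the RNA, but whether the counting used it was not given in the sources used here, so reads of *Ppp2cb* and *Ubxn8* may not have been told apart.

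*Mid1* (ENSMUSG00000035299.18) spans 305.6 kb of chromosome X at chrX:168468195-168773794, on the plus strand. Its canonical transcript has 10 exons and encodes 680 residues. Its estimated counts were 2035.74, 1723.24 and 1701.68 in WT, and 799, 605.62 and 716.36 in BIT libraries. Scaled to the library total these were 38.5, 34.1 and 42.6 CPM in WT and 17.9, 14.4 and 19.1 CPM in BIT. All 3 BIT libraries were thus low, and the highest of them was at 56.1% of the lowest WT library. The mean level was 38.4 ± 4.26 CPM in WT and 17.1 ± 2.44 CPM in BIT mice (SD, n = 3 each).

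After quantile normalization, which gives every library the same distribution of values, *Mid1* was at 5.27 ± 0.09 log2 CPM in WT and 4.09 ± 0.20 log2 CPM in BIT mice (SD, n = 3). The fitted log2 fold change of *Mid1*, BIT against WT, was -1.18 (standard error, SE, 0.117), or 0.442 of the WT level. Of the 16105 genes with enough counts to be tested, 240 had a lower log2 fold change, but only 11 of these were among the 8291 genes with a mean of at least 3 log2 CPM. The fitted values of 355 genes were lower by more than 2-fold, and the central 95% of all log2 fold changes lay between -0.95 and 0.89. Without the library of WT replicate 3 its log2 fold change was -1.14, and with any 1 library left out it lay between -1.24 and -1.06.

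**Figure D1:**
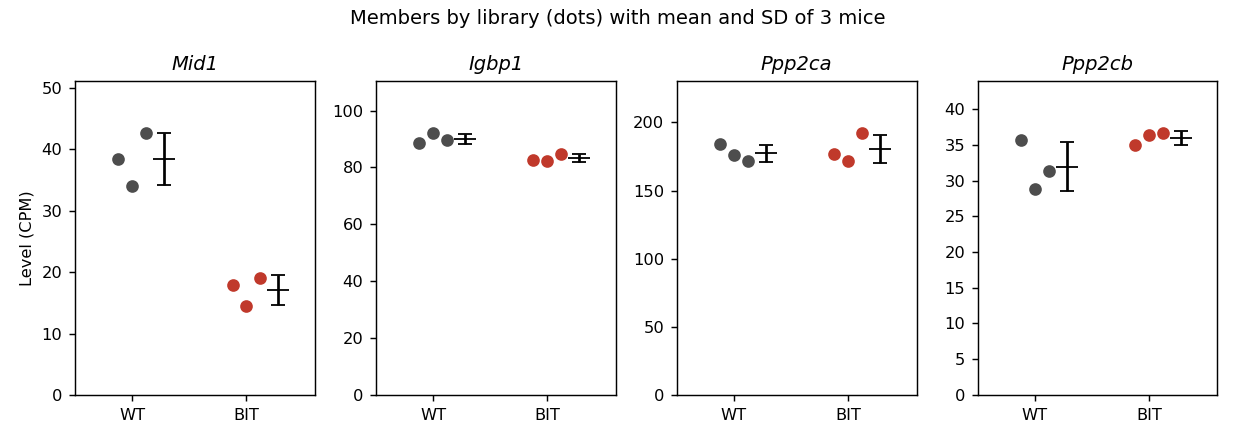
Level in CPM (vertical axis, from 0) of *Mid1*, *Igbp1*, *Ppp2ca* and *Ppp2cb* in each of the 3 WT and 3 BIT libraries (dots, replicates 1 to 3 from left to right), with the mean and SD beside them. For *Mid1* the BIT libraries lie between 14.4 and 19.1 CPM and the WT libraries between 34.1 and 42.6, whereas for *Ppp2ca* and *Ppp2cb* the groups overlap.

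*Mid2* (ENSMUSG00000000266.12, chrX:139565329-139668464, plus strand) encodes a microtubule-bound ubiquitin ligase with the same order of domains as MID1. It had 1, 2 and 3 counts in the WT libraries and 0 in each BIT library. A count of 0 allows up to 0.067, 0.0713 and 0.0801 CPM in the BIT libraries, in counting error alone, against 0.0189, 0.0396 and 0.0751 CPM in WT. Both groups were at or under the limit of 3 counts, so no fold change is given and the gene was too low to be tested.

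*Igbp1* (ENSMUSG00000031221.8, chrX:99537897-99560035, plus strand) encodes alpha4, which joins MID1 to the PP2A catalytic subunit. Its counts were 4684, 4651 and 3577 in WT and 3703, 3468 and 3179 in BIT libraries, or 88.5, 92 and 89.5 CPM against 82.7, 82.4 and 84.8 CPM. The BIT libraries were low in each case and the groups did not overlap, but by a small margin. The mean of *Igbp1* was 90 ± 1.78 CPM in WT and 83.3 ± 1.31 CPM in BIT mice (SD, n = 3), or 92.6% of WT. Its fitted log2 fold change was -0.16 (SE 0.0834, 95% confidence interval -0.35 to 0.03), with an adjusted p of 0.638 by limma-voom with Benjamini-Hochberg adjustment over all genes tested. The interval runs from 0.783 to 1.02 of the WT level. A fall in *Igbp1* of the size seen for *Mid1* lay outside it. Without WT replicate 3 the log2 fold change of *Igbp1* was -0.19 (adjusted p = 0.452, limma-voom), whereas without WT replicate 2 it was -0.10 (adjusted p = 0.989).

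*Ppp2ca* (ENSMUSG00000020349.5, chr11:51989508-52018605, plus strand) encodes the alpha form of the catalytic subunit. It had 9742, 8888 and 6877 counts in WT and 7920, 7250 and 7193 in BIT libraries, or 184, 176 and 172 CPM against 177, 172 and 192 CPM. BIT replicate 3 was the highest of the 6, the other BIT libraries lay among the WT ones, and the groups overlapped. *Ppp2ca* averaged 177 ± 6.11 CPM in WT and 180 ± 10.3 CPM in BIT mice (SD, n = 3). The fitted log2 fold change of *Ppp2ca* was -0.04 (SE 0.083, 95% confidence interval -0.23 to 0.15, adjusted p = 0.911 by limma-voom), and its sign turned with TMM normalization, edgeR or DESeq2, or without WT replicate 2, to 0.02 in each. The interval runs from 0.853 to 1.11 of the WT level. Without WT replicate 3 the log2 fold change of *Ppp2ca* was -0.10 (adjusted p = 0.68, limma-voom).

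*Ppp2cb* (ENSMUSG00000009630.11, chr8:34089603-34115090, plus strand) encodes the beta form. Its counts were 1882, 1455 and 1253 in WT and 1563, 1533 and 1372 in BIT libraries, which gave 35.6, 28.8 and 31.4 CPM against 34.9, 36.4 and 36.6 CPM. Of the WT libraries, replicate 1 lay among the BIT values and the others below them. The mean of *Ppp2cb* was 31.9 ± 3.42 CPM in WT and 36 ± 0.932 CPM in BIT mice (SD, n = 3), and the fitted log2 fold change was 0.15 (SE 0.0928, 95% confidence interval -0.06 to 0.36, adjusted p = 0.693 by limma-voom), or 0.11 without WT replicate 3. *Ubxn8*, whose transcripts overlap those of *Ppp2cb* on the opposite strand, had 1064, 1049 and 772 counts in WT and 883, 833 and 691 in BIT libraries and a log2 fold change of -0.06 (SE 0.11, adjusted p = 0.904 by limma-voom).

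Of the 3 partner genes that could be tested, *Igbp1*, *Ppp2ca* and *Ppp2cb*, none passed an adjusted p of 0.05 by limma-voom, by edgeR or by DESeq2, and 0 had an unadjusted p below 0.05 in limma-voom. Among all genes tested, 0.0807% passed the adjusted threshold as higher in BIT and 0.0559% as lower, and 8.57% had an unadjusted p below 0.05. On the quantile-normalized scale, which is used for all such counts below, the groups did not overlap for 1 of the 3 partners, *Igbp1*, and for 13.3% of all genes tested. Over the 3 genes the 95% confidence intervals ran from 0.783 to 1.28 of the WT level.

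Per length of annotated exon, merged over all transcripts of a gene, the order of the members in WT mice was *Ppp2ca*, *Igbp1*, *Ppp2cb*, *Mid1* and *Mid2*. On the scale of CPM per kb of annotated exon, *Ppp2ca* had a level of 21.3 ± 0.732 in WT and 21.6 ± 1.23 in BIT mice, *Igbp1* of 14.9 ± 0.296 and 13.8 ± 0.218, *Ppp2cb* of 11.6 ± 1.24 and 13.1 ± 0.338, and *Mid1* of 5.28 ± 0.586 and 2.36 ± 0.336 (SD, n = 3). The same order held in BIT mice, with *Mid2* at 0. *Igbp1* and *Ppp2cb* were nearest to each other, and in BIT mice their ranges, between 13.7 and 14.1 and between 12.7 and 13.3 CPM per kb, still did not overlap. On this scale *Mid1* was the lowest of the 4 genes that were read well, in both genotypes. The order depends on the scale, since in CPM *Mid1* was at 38.4 and *Ppp2cb* at 31.9 in WT mice.

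Ratios within a library do not depend on how libraries are scaled to each other. In WT mice *Ppp2ca* had 5.18, 6.11 and 5.49 times the counts of *Ppp2cb*, and in BIT mice 5.07, 4.73 and 5.24 times. *Ppp2cb* thus supplied between 14.1% and 16.2% of the counts of both catalytic genes in WT and between 16% and 17.5% in BIT mice, ranges that overlap. The log2 ratio was 2.48 ± 0.121 in WT and 2.32 ± 0.0758 in BIT mice (SD, n = 3), a difference of -0.16 (SE 0.0825, two-sided exact permutation p = 0.2).

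*Igbp1* had 0.403, 0.45 and 0.44 times the counts of both catalytic genes together in WT libraries and 0.39, 0.395 and 0.371 times in BIT libraries. Each BIT library was low and the groups did not overlap. The log2 ratio was -1.22 ± 0.0838 in WT and -1.38 ± 0.0476 in BIT mice (SD, n = 3), a difference of -0.16 (SE 0.0556). The two-sided exact permutation test gave p = 0.1, which is the smallest that 3 libraries against 3 allow. After adjustment over the 2 ratios p was 0.2 for each in the exact test, so neither passed 0.05. Without WT replicate 3 the differences were -0.17 for *Ppp2ca* over *Ppp2cb* and -0.14 for *Igbp1* over both. Without WT replicate 2 the first was only -0.09, and with any 1 library left out it lay between -0.21 and -0.09 and the second between -0.21 and -0.13.

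The rest of the PP2A system was read from a list of 29 genes for scaffold and regulatory subunits, inhibitors, methylation enzymes and the related phosphatases, 27 of which had enough counts. None passed an adjusted p of 0.05 in either direction by limma-voom, by edgeR or by DESeq2, and 1 of 27 had an unadjusted p below 0.05, against 8.57% of all genes. The fitted log2 fold change was above 0 for 11 genes and below 0 for 16, with a median of -0.020 beside 0.012 over all genes tested and a range from -0.37 to 0.53. The groups were apart for 5 of the 27 genes, against 13.3% of all genes. *Ppp2r2b*, with 0 counts in all libraries, and *Ppp2r2c*, with at most 11, were too low to be tested.

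The gene with an unadjusted p below 0.05 was *Ppp2r3a*, a regulatory subunit of the B'' class. It had 122, 147 and 106 counts in WT and 121, 148 and 184 in BIT libraries, or 2.31, 2.91 and 2.65 CPM against 2.7, 3.52 and 4.91 CPM. In CPM its lowest BIT library was among the WT ones, although the groups were apart after quantile normalization, and its log2 fold change was 0.53 (SE 0.228, adjusted p = 0.574 by limma-voom). *Ppp2r3c*, another subunit of that class, was at 15 ± 1.55 CPM in WT and 12.5 ± 0.51 CPM in BIT mice (SD, n = 3), with a log2 fold change of -0.25 (SE 0.129, adjusted p = 0.638). The scaffold gene *Ppp2r1b* was at 35.3 ± 2.86 CPM and 40 ± 0.915 CPM, with a log2 fold change of 0.15 (SE 0.0926, adjusted p = 0.693). The main scaffold gene *Ppp2r1a*, chosen after its values were seen because its groups did not overlap, had between 84.6 and 101 CPM in WT and between 102 and 109 CPM in BIT libraries, a log2 fold change of 0.11 (adjusted p = 0.713). *Cip2a*, which encodes an inhibitor of PP2A, and *Ppp2r3d* were chosen in the same way. Their log2 fold changes were -0.30 and -0.16 (adjusted p = 0.702 and 0.716 by limma-voom). In CPM the groups of both genes overlapped.

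**Figure D2:**
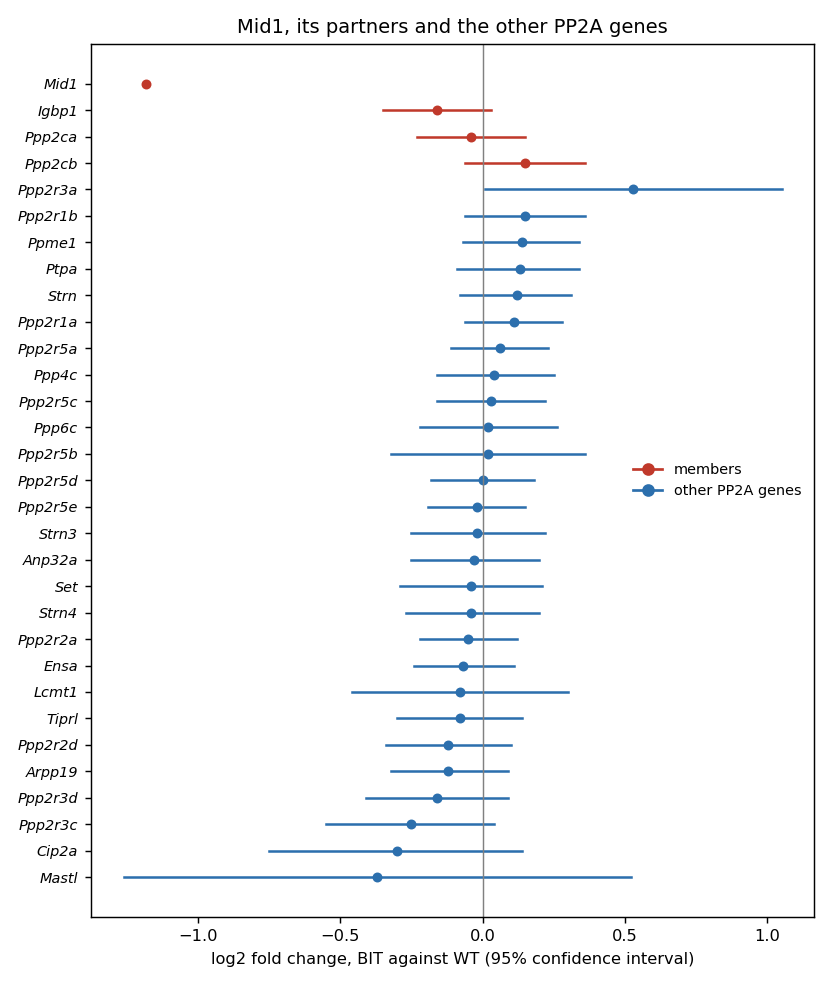
Fitted log2 fold change, BIT against WT (horizontal axis), of *Mid1*, *Igbp1*, *Ppp2ca* and *Ppp2cb* (red) and of the 27 tested genes of the PP2A list (blue), from 3 libraries a group, with bars for the 95% confidence interval of each gene but *Mid1*. *Mid1* is at -1.18 and was chosen for this difference, the blue points lie between -0.37 and 0.53, and the interval of *Ppp2r3a* alone among the blue ones lies to one side of 0.

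The closest relatives of the MID proteins by their domains, and a few of their binding partners, were mostly read as little as *Mid2*. Of 10 genes listed, 3 had enough counts. The other 7, *Trim9*, *Trim67*, *Fsd1*, *Fsd1l*, *Igbp1b*, *Stk36* and *Gli3*, had at most 3 counts in any library. *Mid1ip1*, whose product binds MID1, had a log2 fold change of 0.09 (SE 0.135, adjusted p = 0.872 by limma-voom), with between 8.88 and 10.9 CPM in WT and between 9.23 and 12 CPM in BIT libraries, and -0.00 without BIT replicate 2. *Trim36* and *Trim46* were near 1 CPM, with log2 fold changes of 0.15 (SE 0.34) and 0.08 (SE 0.306) whose sign turned below 0 with TMM normalization, edgeR and DESeq2. None of the 3 had an unadjusted p below 0.05 or an adjusted p below 0.05 in limma-voom, edgeR or DESeq2.

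*Mid1* lies at the end of chromosome X, where in C57BL/6 mice the boundary of the pseudoautosomal region, which X and Y share, runs through the gene. The table held 27 genes within 1 Mb of *Mid1*, 8 of them with enough counts. The 6 that overlap *Mid1* had at most 2.36 counts in any library, so no other gene inside its span was read at its level. With *Msl3* and *Erdr1y* of the Y chromosome, 10 genes of the neighbourhood could be tested. None of these 10 passed an adjusted p of 0.05 by limma-voom or by edgeR. By DESeq2 none passed either, but *Arhgap6* had no adjusted p there. For 2 of the 10 the unadjusted p was below 0.05 and the groups were apart, against 8.57% and 13.3% of all genes tested. Their log2 fold changes had a median of 0.137 beside 0.012 over all genes, with 8 above 0 and 2 below.

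The 2 genes were *Sts* and *Akap17a*, and both were high where *Mid1* was low. *Sts*, which encodes steroid sulfatase, had 53, 44 and 58 counts in WT and 82, 112 and 80 in BIT libraries, or 1, 0.87 and 1.45 CPM against 1.83, 2.66 and 2.14 CPM. Its groups did not overlap, and its log2 fold change was 1.15 (SE 0.282, adjusted p = 0.367 by limma-voom), or 1.19 without WT replicate 3. *Akap17a*, which encodes a splicing-related anchoring protein, had 35, 25.6 and 36.5 CPM in WT and 38.3, 53.8 and 40.2 CPM in BIT libraries. The groups were again apart, with a log2 fold change of 0.42 (SE 0.157, adjusted p = 0.545 by limma-voom). On the other side of *Mid1*, *Hccs* and *Msl3* were near 0, at -0.06 (SE 0.132, adjusted p = 0.921) for *Hccs* and 0.08 (SE 0.0906, adjusted p = 0.815) for *Msl3* in limma-voom, and the sign for *Hccs* turned without WT replicate 2 or BIT replicate 2. *Hccs* encodes the enzyme that attaches haem to cytochrome c and *Msl3* a chromatin protein.

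The other tested neighbours were fitted less well. *Gm61521* was at 0.33 (SE 0.281), *Gm61591* at 0.21 (0.246), *Nlgn4l* at 0.05 (0.202), *Erdr1x* at -0.26 (0.395), *Erdr1y* at 0.19 (0.366) and *Arhgap6* at 0.06 (0.503) on the log2 scale, with adjusted p between 0.761 and 0.977 by limma-voom. For *Erdr1x* the sign turned without WT replicate 3 or BIT replicate 2, and for *Arhgap6*, a gene with at most 27 counts, also with TMM normalization, edgeR, sample quality weights and replicate 3 as a batch. For *Gm61591*, *Nlgn4l* and *Erdr1y* it turned when 1 library was left out. A fold change of the direction and size seen for *Mid1* was fitted for none of its tested neighbours.

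**Figure D3:**
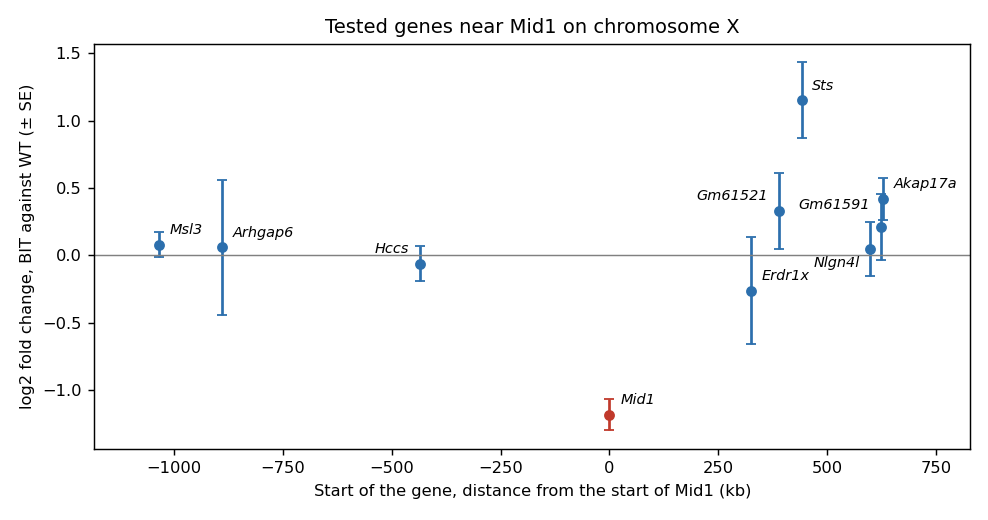
Fitted log2 fold change, BIT against WT, with its standard error (vertical axis, 3 libraries a group) for *Mid1* and the tested genes near it, by the distance of the gene's lower coordinate from that of *Mid1* in kb (horizontal axis). *Mid1* is at -1.18, *Hccs* and *Msl3* are near 0, and *Sts* at 1.15 and *Akap17a* at 0.42 lie on the pseudoautosomal side.

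Few of the counts were assigned to the Y-linked copy. *Mid1-ps1* had 25.88, 0 and 17.13 estimated counts in WT and 0, 4.24 and 0 in BIT libraries, at most 1.26% of its sum with *Mid1* in any library. The library of WT replicate 3, with 0 counts of 4 Y-linked genes, was thus still given 17.13 counts of it. WT replicate 2, with 11871 counts of those 4 genes, was given 0. How many of the reads came from the Y-linked copy can therefore not be told from this split. Added together, *Mid1* and *Mid1-ps1* had 39, 34.1 and 43 CPM in WT and 17.9, 14.5 and 19.1 CPM in BIT libraries. The sum in BIT mice was 44.3% of WT, against 44.6% for *Mid1* alone. The other genes that share read-length stretches with *Mid1* had at most 11.14 counts in any library.

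Genes of granule release, the process in cytotoxic T cells for which MID1 has been described, were read from a list of 29, of which 28 were found and tested. Their median log2 fold change was -0.014, with 14 above 0 and 14 below, and the groups did not overlap for 6 of 28, against 13.3% of all genes tested. By limma-voom, edgeR and DESeq2 none passed an adjusted p of 0.05, whereas 5 of 28 had an unadjusted p below 0.05 in limma-voom, against 8.57% of all genes. *Prf1*, which encodes the pore-forming protein perforin, had 114, 95.4 and 105 CPM in WT and 126, 129 and 141 CPM in BIT libraries, with a log2 fold change of 0.27 (SE 0.0746, adjusted p = 0.424 by limma-voom). *Srgn*, which encodes the granule proteoglycan serglycin, was at 236 ± 13.4 CPM in WT and 200 ± 22.8 CPM in BIT mice (SD, n = 3), a log2 fold change of -0.32 (SE 0.115, adjusted p = 0.537). *Snap23*, a membrane fusion gene, was at 25.9 ± 1.08 CPM and 21.9 ± 1.7 CPM, a log2 fold change of -0.26 (SE 0.102, adjusted p = 0.553).

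The other 2, named after their values were seen, were *Nkg7*, a granule membrane gene with a log2 fold change of 0.18 (adjusted p = 0.559), and *Sytl1*, a Rab27-binding gene with -0.41 (adjusted p = 0.571 by limma-voom). The genes at an unadjusted p below 0.05 thus lay on both sides of 0. The lowest value of the list, -1.32 for *Gzma*, had an SE of 1.05, and the counts of this granzyme gene were 182, 427 and 2444 in WT and 159, 152 and 258 in BIT libraries. The library of WT replicate 3 was the high one.

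PP2A and alpha4 also act in the mTORC1 pathway, which couples nutrients to protein synthesis, and all 14 of its listed genes were tested. None passed an adjusted p of 0.05 by limma-voom, by edgeR or by DESeq2, and 1 of 14 had an unadjusted p below 0.05, against 8.57% of all genes. The log2 fold change was above 0 for 9 and below 0 for 5, with a median of 0.113. *Tsc2*, a brake on the pathway, was at 45.1 ± 6.47 CPM in WT and 54.7 ± 5.06 CPM in BIT mice (SD, n = 3), a log2 fold change of 0.24 (SE 0.0958, adjusted p = 0.553 by limma-voom). *Rptor*, which encodes the defining subunit of the complex, was at 68.5 ± 9.47 CPM and 84.2 ± 13.4 CPM, a log2 fold change of 0.24 (SE 0.109, adjusted p = 0.611). *Rps6*, a target of the pathway at the ribosome, was at 2474 ± 164 CPM and 2474 ± 236 CPM, and its fitted 0.22 (SE 0.107) turned to -0.01 with TMM normalization. The groups were apart for 2 of the 14, against 13.3% of all genes, namely *Tsc2* and *Rps6kb2*, an S6 kinase gene named after its values were seen, with a log2 fold change of -0.20 (adjusted p = 0.678 by limma-voom).

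**Figure D4:**
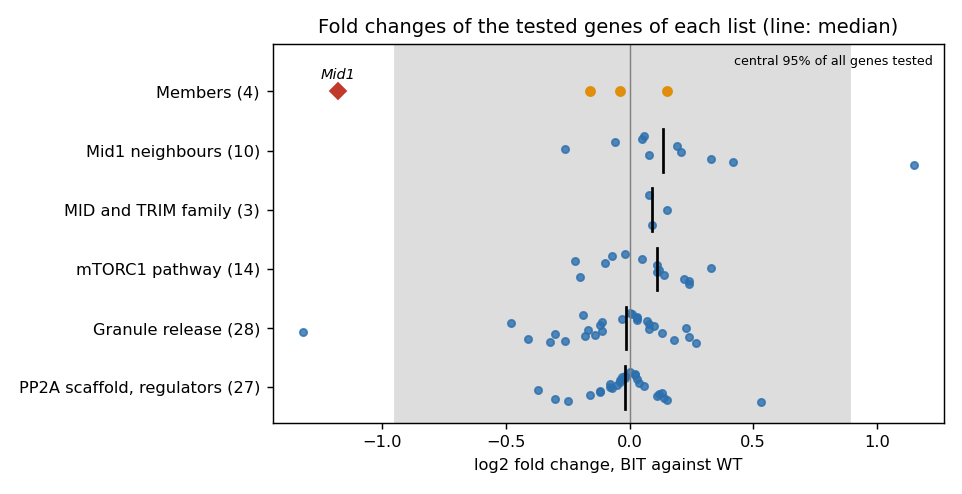
Fitted log2 fold change, BIT against WT (horizontal axis), of each tested gene in the 5 lists (blue dots, number of genes in brackets, black line at the median) and of *Mid1* (red diamond) with *Igbp1*, *Ppp2ca* and *Ppp2cb* (orange), from 3 libraries a group. The grey band from -0.95 to 0.89 holds the central 95% of all genes tested, and the medians of the lists lie between -0.020 and 0.137, while *Mid1*, which was chosen for its difference, lies to the left of the band.

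The genes whose pattern over the 6 libraries was most like that of *Mid1* were found by Pearson's r on quantile-normalized log2 CPM, among genes with a mean of at least 3. All 6 libraries enter each r, and since *Mid1* separates the genotypes, any gene that does so scores high. The highest were *Dzip1* (r = 0.985), *Spata6* (0.981), *Hnrnpd* (0.980), *Birc3* (0.979) and *Slc6a19* (0.977). Their log2 fold changes were -0.31, -0.27, -0.34, -0.23 and -0.998, so that only *Slc6a19*, an amino acid transporter gene, came near *Mid1* in size. *Slc25a28* (r = -0.992), *Reck* (-0.990), *Ptp4a3* (-0.990), *Trappc11* (-0.987) and *Rfc1* (-0.987) ran most opposite to it. Over the same 6 libraries r with *Mid1* was 0.723 for *Igbp1*, 0.265 for *Ppp2ca* and -0.713 for *Ppp2cb*, and none of the partners was among these 10 genes.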

How the data were processed

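RNA was measured in CD4-CD8+ T cells of 3 WT and 3 BIT mice, grouped by the sample titles. The authors used cutadapt 1.18 for trimming and STAR 2.7.0f for alignment to GRCm39, and deposited expected counts per gene from RSEM 1.3.1 on Gencode M38 (versions from the submitters' processing notes), which are not normalized. RSEM splits a read that matches several genes. Of the values above 0, 84.8% were whole, and all were rounded for the tests.

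WT and BIT libraries were compared with limma 3.58.1 in R 4.3.3 (voom with quantile normalization, lmFit and eBayes), as the study's methods name, after filterByExpr (edgeR 4.0.16) had left 16105 genes, over all of which p-values were adjusted by Benjamini-Hochberg. The fit was repeated with DESeq2 1.42.0, with the quasi-likelihood test of edgeR, with TMM normalization, without a filter or at 1 CPM on average, with quality weights per sample, with replicate numbers blocked, with replicate 3 as a batch, and without each library. The scripts were tested on simulated data. The 2 ratios of counts were compared with exact permutation tests. Levels per kb used the exons of Gencode M39, which held 78263 of the identifiers, 78224 under the same symbol, and GRCm39 gave the sequences. All values are relative to the library total. Libraries held between 37467678 and 52922675 counts. Limits from 3 counts cover counting error only. The p-values of the fits set the difference between genotypes against the spread between mice. Those of the exact tests place it among all assignments of the 6 libraries to the groups.

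The members, gene lists and tests were chosen with earlier results of these data known. Named by rule were the 5 members, and the 5 genes most like and the 5 most unlike *Mid1* by correlation. Of each list, the genes with an adjusted p below 0.05 and the 3 with the smallest p were named (of the neighbours, each tested gene). *Ppp2r1a*, *Cip2a*, *Ppp2r3d*, *Nkg7*, *Sytl1*, *Gzma* and *Rps6kb2* were named after their values were seen. *Ubxn8* was named for its overlap with *Ppp2cb*. *Vamp7* of the granule list was not found among the symbols used here.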

Additional observations from a re-analysis of the deposited data

How the results depend on the processing

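The log2 fold change of *Mid1* was between -1.18 and -1.16 in the 8 other fits and between -1.24 and -1.06 with 1 library left out. No list gene or partner named here passed an adjusted p of 0.05 in any fit. The sign turned for *Ppp2ca* to 0.02 with TMM normalization, edgeR and DESeq2 (between -0.10 and 0.02 with 1 library left out), for *Rps6* to -0.01, -0.01 and -0.00, for *Trim36* to -0.00, -0.01 and -0.00, and for *Trim46* to -0.10, -0.16 and -0.15. *Arhgap6* was at -0.16 with TMM normalization and with sample quality weights, -0.18 with edgeR and -0.03 with replicate 3 as a batch. With 1 library left out, the sign also turned for *Trim36* (between -0.04 and 0.44), *Trim46* (-0.03 to 0.23), *Arhgap6* (-0.36 to 0.35), *Mid1ip1* (-0.00 to 0.17), *Gm61591* (-0.01 to 0.46), *Erdr1x* (-0.60 to 0.13), *Erdr1y* (-0.18 to 0.62), *Hccs* (-0.17 to 0.03) and *Nlgn4l* (-0.06 to 0.22). The cause was not tested.

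With the replicate number as a block the log2 fold changes were -1.18 for *Mid1*, -0.16 for *Igbp1*, -0.04 for *Ppp2ca* and 0.15 for *Ppp2cb*, and the count of genes at an adjusted p below 0.05 was 21 in place of 22. With replicate 3 as a batch that count was 42, without 1 library it was between 1 and 37, and with DESeq2 125. Deviations of same-numbered libraries correlated at 0.139, 0.025 and 0.332. The value for the libraries numbered 3 was the highest of all pairs, whereas WT replicate 2 correlated best with BIT replicate 1 (0.244). Whether the numbers pair the mice was not tested. *Mid2* could not be fitted. Depth limits *Mid2*. Counts of the Y-linked copy depend on how reads that match it and *Mid1* equally well were split. Having 3 libraries a group limits the exact tests of the ratios to p = 0.1.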

Other observations

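*Erdr1*, the pseudoautosomal gene next to *Mid1*, is annotated on X (*Erdr1x*) and on Y (*Erdr1y*). *Erdr1y* took 68%, 74.6% and 72.6% of the counts of both in WT and 80%, 80% and 73.5% in BIT libraries. The library of WT replicate 3, with 0 counts of 4 Y-linked genes, held 7978.25 estimated counts of *Erdr1y*, the highest of the 6.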
